A study of Mus musculus with 4 samples.

Results

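The genotype difference in regulatory T cells of visceral fat (Treg cells, which express FOXP3 and hold immune responses in check) was described from 1 wild-type and 1 PPARg-2KR library. All genes with at least 20 CPM (a read count scaled to the size of its library, as given below) in 1 of the 2 fat libraries were taken, which gave 7750 of 23284 gene symbols counted. RNA was sequenced from sorted Treg cells of epididymal white adipose tissue (eWAT, the visceral fat pad beside the testis) and of spleen, the control tissue. Mice were C57BL/6 animals of 12 to 13 months that were wild type (WT) or PPARg-2KR, and each combination of tissue and genotype had 1 library, 4 in all. The 4 groups shared strain and age, and no treatment is named for any of them. The sources used here do not give the number of animals behind a library, the cells in which the PPARg-2KR change was present, or the gate of the sort.

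Treg cells of visceral fat are a tissue-resident population known for high levels of the nuclear receptor PPARG, of the IL-33 receptor ST2 and of the growth factor amphiregulin, and they accumulate in the fat of male mice with age. They derive from lymphoid Treg cells, which carry receptors for lymph node homing instead. PPARG binds fatty acid ligands, and in adipocytes it drives lipid storage. Its activity depends in part on acetylation of lysines, and the 2KR form carries arginine in place of a pair of these lysines.

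The 2 fat libraries held 11186660 reads (WT) and 8315569 reads (2KR), and the spleen libraries 13250590 and 15993889. Levels are given as CPM after trimmed mean of M-values (TMM) scaling, which adjusts each total on the assumption that most genes do not differ between libraries. Its factors came from 16488 genes, and the ratios of the 7750 genes taken here were not centred on 0 by it, as given below. A difference is a log2 ratio of 2KR over WT, and a gene is called higher or lower when that ratio reaches 1 or −1, a 2-fold difference. With 1 library a group no test of genotype was possible and no p-value is given. The 95% intervals cover the counting of reads only, without the spread between animals or the choice of scaling. A count of 0 allows up to 3 reads, which is 0.277 CPM in WT fat and 0.311 CPM in 2KR fat. Both fat libraries held the defining Treg and T cell transcripts. Foxp3, the lineage factor, stood at 1159.7 (WT) and 801 CPM (2KR) in fat, against 1408 (WT) and 1298 CPM (2KR) in spleen, a ratio of −0.53 (95% interval −0.58 to −0.49) in fat. Cd3e, a chain of the T cell receptor complex, stood at 672 and 572 CPM in WT and 2KR fat. Cd8a, which marks CD8 T cells, stood at 3.51 and 2.49 CPM, and the list of CD8 T and NK cell markers is given below. The PPARg-2KR change alters the protein, so the level of its transcript checks no label. Pparg stood at 129.5 (WT) and 63.9 CPM (2KR) in fat, against 5.73 (WT) and 2.89 CPM (2KR) in spleen. Its ratio was −1.02 (95% interval −1.16 to −0.88) in fat and −0.95 (95% interval −1.57 to −0.43) in spleen, both below the middle of all genes. The spleen ratio rests on 71 (WT) and 44 reads (2KR). With libraries scaled by their total counts alone, the fat ratios were −0.76 for Pparg and −0.28 for Foxp3.

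In 2KR fat Treg cells 194 genes were called lower (2.50% of the 7750) and 78 were called higher (1.01%). Among genes with 100 reads the 12 lowest ratios were those of Bace2, Slpi, Pcsk1, Ccr1, Csf1, Cxcl2, Mmp25, Cxcr6, Areg, Il1rl1, Atf3 and Tox2. The 12 highest included Lrig1, Lrrc32, Mef2c, Myh11, Gpr141, Tgfa, Myl9, H2-Ob, Flt3, Acta2 and Cd163. The median ratio over all 7750 genes was −0.19, with quartiles of −0.41 and 0.07, so that 5373 ratios were below 0 and 2377 above. When libraries were scaled by their total counts instead, ratios were 0.26 higher. The median was then 0.07, and the calls turned to 227 higher (2.93%) and 92 lower (1.19%). The share of calls that were higher was thus 28.7% under TMM and 71.2% under total counts. For this reason a list of genes is given below by its median minus the median of all genes, which scaling hardly moves, and by its calls under both scalings. The naming rule took the 12 highest and 12 lowest ratios among genes with 100 reads, and the same among genes that both spleen libraries held at 20 CPM. These came to 41 genes. A gene near 20 CPM can enter the 7750 through the library where it is higher, so the counts and medians of lists describe the genes that passed and support nothing. Without that filter the median ratio of all 22145 genes with reads was 0.13, and list medians relative to it are given below for the main lists.

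**Figure D1:**
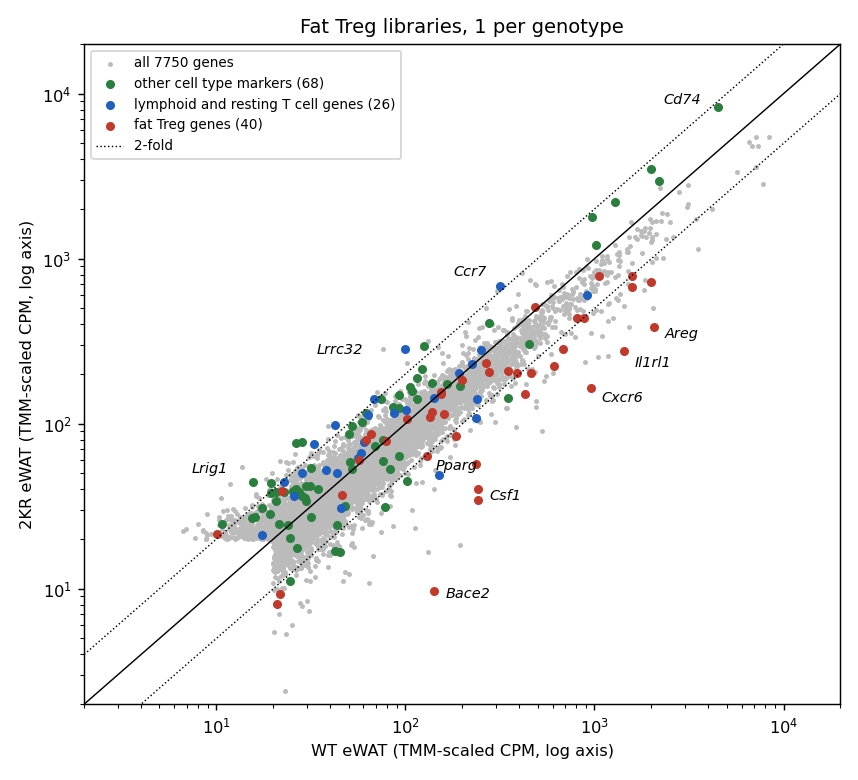
Level of each of the 7750 genes in WT eWAT (horizontal) and 2KR eWAT (vertical), in TMM-scaled CPM on log axes, with 1 point per gene. The solid line marks equal levels and the dotted lines a 2-fold difference. Red points are the 40 fat Treg genes, blue the 26 lymphoid and resting T cell genes and green the 68 markers of other cell types. Il1rl1, Areg, Csf1 and Bace2 lie below the lower dotted line, and Ccr7, Lrrc32 and Lrig1 above the upper one.

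Calls were unevenly spread over levels. Among the 237 genes with a mean of 500 CPM or more the median ratio was −0.40, with 37 called lower and 0 called higher. Among the 3098 genes from 20 to below 50 CPM the median was −0.13, with 60 lower and 34 higher. List medians below are set against all genes and not against genes of like level. How far the level of its genes enters the median of a list was not tested. At the threshold itself, the 315 genes whose higher level was 20 to 22 CPM had a median of −0.05, with 8 higher and 7 lower. The 361 genes just outside it, at 18 to 20 CPM, had a median of −0.02, with 20 higher and 8 lower. For all called genes the counting interval excluded 0, and for 123 of the 194 lower and 34 of the 78 higher genes it lay wholly past 2-fold. The lower genes rested on more reads, a median of 1222.5 in the higher of the 2 libraries against 348 for the higher genes.

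Genes known for fat Treg cells were lower in 2KR fat. Of the 40 in the list, 19 were called lower and 1 higher (12 and 2 under total counts), and 29 lay below the middle of all genes. The median of the list was −0.73 relative to all genes in fat and −0.09 in spleen. Because RNA was measured in bulk, fewer cells of a type and less RNA per cell cannot be told apart here or below. The genes were chosen with earlier results of these data known, so the count describes these 2 libraries and does not test the list.

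Il1rl1 (chr1:40496494-40522259 in mm9) encodes ST2, the receptor through which IL-33 expands fat Treg cells. It was read at 1428 (WT) and 277 CPM (2KR) in fat, against 16.5 (WT) and 27.0 CPM (2KR) in spleen. WT fat stood far above the other 3 libraries, and the ratio in fat was −2.36 (95% interval −2.42 to −2.31). Areg (chr5:91568641-91577458) encodes amphiregulin, a ligand of the EGF receptor made by tissue Treg cells. Its levels were 2068 (WT) and 386 CPM (2KR) in fat, against 11.8 (WT) and 10.8 CPM (2KR) in spleen, and the ratio in fat was −2.42 (95% interval −2.47 to −2.37). Both genes were low in spleen, and 2KR fat held them well above that level. Bace2 (chr16:97578335-97660619), an aspartyl protease of the cell surface, had the lowest ratio by the naming rule. It stood at 142 (WT) and 9.75 CPM (2KR) in fat, against 8.16 (WT) and 3.87 CPM (2KR) in spleen, a ratio of −3.84 (95% interval −4.18 to −3.57), which placed 2KR fat close to the spleen level. Csf1 (chr3:107543966-107563387) encodes the growth factor of macrophages. It was read at 242 (WT) and 40.4 CPM (2KR) in fat, against 101 (WT) and 118 CPM (2KR) in spleen, so that 2KR fat was the lowest of the 4 libraries, with a ratio of −2.58 (95% interval −2.74 to −2.43).

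The receptors of the list followed the same direction with different sizes. Ccr1, a receptor for inflammatory chemokines, had 241 and 34.3 CPM in WT and 2KR fat, a ratio of −2.81 (95% interval −2.98 to −2.65). Cxcr6, which binds CXCL16, had 953 and 165 CPM and a ratio of −2.53 (95% interval −2.61 to −2.45). Ccr2, the receptor for CCL2, differed less, with 1586 and 673 CPM and a ratio of −1.24. Klrg1, an inhibitory receptor of differentiated T cells, stood at 1983 and 726 CPM (−1.45), and Cd200r1, the receptor for CD200, at 427 and 152 CPM (−1.49). The transcription factors of the list divided. Gata3 (−1.26) and Id2 (−1.01) were called lower, and Rora had a ratio of −0.95. Irf4 (−0.29) and Batf (−0.25), which act early in fat Treg differentiation, were close to the median of all genes. Il10, the suppressive cytokine, had 460.3 and 204 CPM and a ratio of −1.18. The list held exceptions. Ccr8, a chemokine receptor of tissue Treg cells, stood at 155 and 152 CPM, and Cd36, a fatty acid transporter, at 154 and 157 CPM, both of them near a ratio of 0. Gpr55, a receptor for lysophospholipids, was called higher, at 10.1 and 21.4 CPM (1.07), and Itgae, the integrin that binds E-cadherin, stood at 22.2 and 39.0 CPM (0.81).

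**Figure D2:**
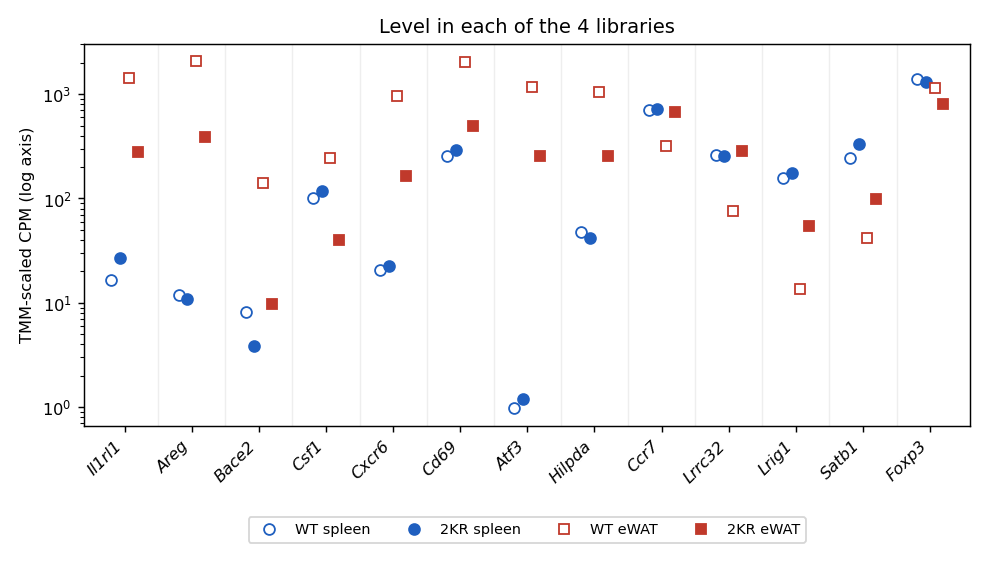
TMM-scaled CPM (log axis) of 13 genes in each of the 4 libraries, with 1 point per library. Circles are spleen and squares eWAT, open symbols WT and filled symbols 2KR. For Il1rl1, Areg, Cxcr6, Atf3 and Hilpda the open square stands above the other 3 libraries, and for Ccr7, Lrrc32 and Lrig1 it stands below them.

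Other lower genes of large size lay outside the list. Slpi, a secreted inhibitor of serine proteases, had 23.1 and 2.39 CPM in WT and 2KR fat and a ratio of −3.19 (95% interval −3.96 to −2.66), the second lowest by the naming rule. Pcsk1, a protease that processes prohormones, had 132 and 16.6 CPM (−2.97), and Mmp25, a membrane-bound metalloprotease, 63.9 and 10.8 CPM (−2.55). Tox2, a DNA-binding protein of the TOX family, was read at 67.3 (WT) and 15.9 CPM (2KR) in fat, against 20.4 (WT) and 20.1 CPM (2KR) in spleen, so that 2KR fat lay below the spleen level. Ctla2a, related to the propeptide of cathepsins, had 491 and 126 CPM (−1.97), and S100a6, a calcium-binding protein, had 1099.9 and 339 CPM (−1.70). Plec, which links cytoskeletal filaments, had 604 and 204 CPM and a ratio of −1.57.

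Some cytokine genes were lower in 2KR fat. Of 18 cytokine and secreted effector genes at 20 CPM, 5 were called lower and 0 higher (3 and 2 under total counts), with a median of −0.40 relative to all genes. Besides Csf1, Areg, Il10 and Fgl2, the lower genes included Csf2, the growth factor GM-CSF, at 28.5 and 7.89 CPM (−1.83). The other direction held Ifng, at 36.8 and 67.3 CPM (0.87), and Gzmb, the cytotoxic protease granzyme B, at 155 and 267 CPM (0.78). Both passed 2-fold under total counts only. Cxcl2, a neutrophil-attracting chemokine, stood at 528 (WT) and 89.8 CPM (2KR) in fat, against 6.62 (WT) and 5.57 CPM (2KR) in spleen, a ratio of −2.55 (95% interval −2.66 to −2.45). Its neighbours on chromosome 5, Cxcl1 (−1.84) and Cxcl3 (−2.06), were named after their values were seen, and the similarity of these genes leaves the split of reads among them uncertain.

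The promoters of the called genes were searched for 5 short motifs in the 250 bases before the start of each gene, on both strands, in RefSeq sequences of GRCm38.p6. Sequences were found for 137 of the 194 lower genes, 57 of the 78 higher genes and 5693 of the 7750. The NF-kB motif (GGGA, then any base, then TTTCC) was in 6 of the 137 lower genes (4.38%), 0 of the 57 higher genes and 29 of the 5693 (0.509%), and in 0.414% of all 27025 promoters. The 6 were Csf1, Cxcl1, Cxcl2, Cxcl3, Ccr3 and Nfkbia, and 3 of them are the neighbouring chemokine genes, which share sequence by descent. These shares use calls under TMM. Under total counts, where ratios were 0.26 higher, Ccr3 (−1.13 under TMM) and Nfkbia (−0.79 under total counts) fell short of the call. The cyclic AMP response element TGACGTCA was in 4.38% of the lower genes, 5.26% of the higher genes and 3.58% of the 5693. The AP-1 motif TGACTCA was in 5.84%, 3.51% and 3.72% in the same order, and the E-box CACGTG in 10.2%, 7.02% and 10.6%. The CArG box was in 2 of the lower genes (1.46%), 4 of the 57 higher genes (7.02%) and 1.42% of the 5693. No motif contains another of the 5. A match is a description of letters and not a binding site. The stretches shown are those of the 6 lower genes with the NF-kB motif, with Areg added for its cyclic AMP response element. Capitals mark the match, each sequence is written along the strand of its gene, and the stretches lie at chr3:107760574-107760663 (Csf1, minus strand), chr5:90903762-90903851 (Cxcl2), chr5:90785988-90786077 (Cxcl3), chr5:90891134-90891223 (Cxcl1), chr9:124021752-124021841 (Ccr3), chr12:55492648-55492737 (Nfkbia, minus strand) and chr5:91139497-91139586 (Areg), on the plus strand where none is named.
Csf1: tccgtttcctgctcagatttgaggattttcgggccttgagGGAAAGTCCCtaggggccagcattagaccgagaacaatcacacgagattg
Cxcl2: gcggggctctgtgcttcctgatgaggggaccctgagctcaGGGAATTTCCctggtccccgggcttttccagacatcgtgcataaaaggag
Cxcl3: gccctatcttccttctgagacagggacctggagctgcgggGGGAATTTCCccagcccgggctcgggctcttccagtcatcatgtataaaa
Cxcl1: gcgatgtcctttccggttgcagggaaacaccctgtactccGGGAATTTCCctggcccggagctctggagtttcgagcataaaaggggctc
Ccr3: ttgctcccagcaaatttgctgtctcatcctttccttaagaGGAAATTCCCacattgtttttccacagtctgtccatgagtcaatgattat
Nfkbia: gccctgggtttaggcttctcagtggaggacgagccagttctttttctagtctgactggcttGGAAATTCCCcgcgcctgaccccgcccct
Areg: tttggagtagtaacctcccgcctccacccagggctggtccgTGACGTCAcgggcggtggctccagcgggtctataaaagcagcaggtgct

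Genes of lymphoid and resting T cells were higher in 2KR fat. Of 26 at 20 CPM, 5 were called higher and 2 lower (8 and 1 under total counts), and 21 lay above the middle of all genes. The median of the list was 0.47 relative to all genes in fat and 0.15 in spleen, and 0.19 in fat without the filter on level. Ccr7 (chr11:99005513-99016391 in mm9), the receptor that guides cells into lymph nodes, stood at 316 (WT) and 679 CPM (2KR) in fat, against 699 (WT) and 724 CPM (2KR) in spleen, so that WT fat was the lowest and 2KR fat stood just under both spleen libraries. Its ratio was 1.10 (95% interval 1.04 to 1.16).

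Satb1, an organiser of chromatin in T cells, had 42.2 and 98.3 CPM in WT and 2KR fat (1.22), and Btla, an inhibitory receptor of lymphocytes, had 32.8 and 75.7 CPM (1.20). Slamf6, a receptor of less differentiated T cells, stood at 68.2 and 141 CPM (1.05), and Bach2, a repressor of effector differentiation, at 22.8 and 44.4 CPM (0.96). Tcf7 (0.41), Lef1 (0.21) and Id3 (0.50), transcription factors of resting T cells, were above the middle of all genes without reaching 2-fold. The list held lower genes too. Ccr9, a receptor for gut homing, had 150.0 and 49.0 CPM (−1.61), Ly6c1 had 236 and 108 CPM (−1.13) and Klf2, which sustains homing receptors, had 239.8 and 141 CPM (−0.77).

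The highest ratio by the naming rule was that of Lrig1 (chr6:94554523-94650139), a membrane protein that limits signalling of EGF receptors. Lrig1 was read at 13.7 (WT) and 54.4 CPM (2KR) in fat, against 156 (WT) and 177 CPM (2KR) in spleen, a ratio of 1.98 (95% interval 1.73 to 2.27). Lrrc32 (chr7:105642732-105650340) encodes GARP, which holds latent TGF-beta on the surface of Treg cells. It stood at 76.1 (WT) and 285 CPM (2KR) in fat, against 263 (WT) and 257 CPM (2KR) in spleen, and WT fat was the lowest while the other 3 libraries lay close together. The ratio in fat was 1.90 (95% interval 1.79 to 2.02). WT fat was again the lowest library for further genes that spleen held at 20 CPM. Cd200, the ligand of CD200R1, had 18.4 (WT) and 46.5 CPM (2KR) in fat, against 222 (WT) and 193 CPM (2KR) in spleen. Ctsw, a cathepsin of lymphocytes, had a ratio of 1.34, St8sia6, a sialyltransferase, of 1.34, and Ift80, a transport protein of cilia, of 1.31.

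Treg core genes were near the middle. Of 21, 2 were called higher (Lrrc32 and Gpr83) and 0 lower, against 4 and 0 under total counts, with a median of 0.07 relative to all genes (−0.10 without the filter on level). Ctla4, the inhibitory receptor that removes CD80 and CD86 from other cells, had 2419.5 and 1872 CPM in WT and 2KR fat (−0.37). Il2ra, the high-affinity chain of the IL-2 receptor, had 1008 and 658 CPM (−0.61), and Tgfb1 had 243 and 137 CPM (−0.83), the lowest of the list. Ikzf2, the factor Helios, had 251 and 279 CPM (0.15). Cd83, a surface protein of activated lymphocytes, stood at 415 and 823 CPM (0.99), just short of 2-fold, and Gpr83, a receptor of lymphoid Treg cells, at 12.0 and 27.2 CPM (1.17).

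Of 39 T cell identity and receptor signalling genes, 1 was called higher and 1 lower under either scaling. Over all 7750 genes the shares were 1.01% higher and 2.50% lower under TMM, so 1 call each way does not set this list apart. Its median was −0.04 relative to all genes (−0.36 without the filter on level). Sit1, an adaptor that dampens receptor signals, had the lowest ratio, at 221 and 91.9 CPM (−1.26). Txk, a kinase of the TEC family, had the highest, at 23.4 and 48.6 CPM (1.05). Bcl11b, a factor that maintains T cell identity, had 312 and 167 CPM (−0.90). When libraries were scaled to the reads of this list instead, 205 genes were called higher and 98 lower, close to the counts under total scaling.

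**Figure D3:**
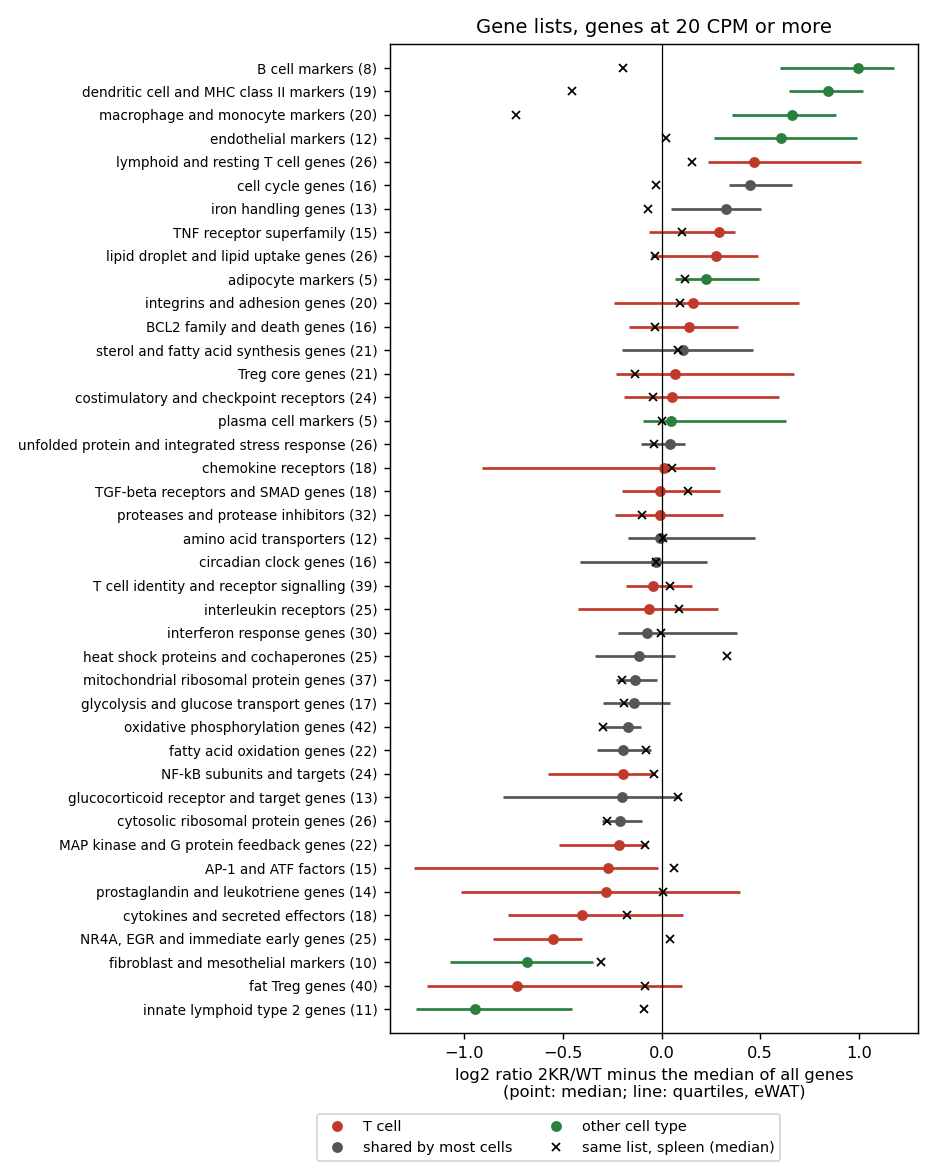
Median log2 ratio of 2KR over WT eWAT (points) with quartiles (lines) for each gene list with at least 5 genes at 20 CPM, after subtraction of the median of all genes. The number of genes stands in parentheses, red marks T cell lists, grey lists shared by most cells and green markers of other cell types. Crosses give the same median in spleen. The lists of fat Treg genes and of NR4A, EGR and immediate early genes lie at the lower end, near the type 2 innate lymphoid and fibroblast lists, and B cell, dendritic cell and macrophage markers lie at the upper end.

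Early response genes, which are switched on within minutes of a stimulus, were lower in 2KR fat. Of 25 NR4A, EGR and immediate early genes, 8 were called lower and 0 higher (4 and 0 under total counts), and 21 lay below the middle of all genes. Their median was −0.55 relative to all genes in fat and 0.04 in spleen, and −0.86 in fat without the filter on level. Nr4a1, a nuclear receptor induced by T cell receptor signals, stood at 3518 (WT) and 1142 CPM (2KR) in fat, against 211 (WT) and 213 CPM (2KR) in spleen. WT fat was far above spleen, 2KR fat lay between them, and the ratio was −1.62 (95% interval −1.65 to −1.59). Gadd45b, which activates stress kinases, had 1837 and 645 CPM (−1.51), and Zfp36, which degrades cytokine messages, had 1431 and 516 CPM (−1.47). Egr1 had 587 and 265 CPM (−1.15). The members did not all share this direction, since Nr4a2 had 233 and 322 CPM (0.47), Egr2 had 35.5 and 43.7 CPM (0.30), and Rel, an NF-kB subunit, had 117 and 174 CPM (0.58).

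Among 15 AP-1 and ATF factors, 6 were called lower and 0 higher (5 and 1 under total counts). These were Atf3, Fosb, Jund, Junb, Jun and Fos. Atf3, a stress-induced repressor, stood at 1174 (WT) and 256 CPM (2KR) in fat, against 0.969 (WT) and 1.18 CPM (2KR) in spleen, a ratio of −2.19 (95% interval −2.26 to −2.13). Junb, the most read of the list, had 7757 and 2846 CPM in WT and 2KR fat (−1.45), and Fos had 1326 and 565 CPM (−1.23). Batf, Mafk and Atf4 lay between −0.38 and −0.17, close to the median of all genes. Bach1 (0.78) and Nfe2l2 (0.50), regulators of the oxidative stress response, were at the upper end.

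Feedback genes of these pathways gave fewer calls. Relative to all genes, the median was −0.21 for the MAP kinase and G protein feedback list. It was −0.20 for the NF-kB list and −0.27 for the AP-1 and ATF list. Of 22 MAP kinase and G protein feedback genes, 2 were called lower under TMM and 0 under total counts. Cish, an inhibitor of cytokine receptor signals, had 748 and 353 CPM (−1.08), and Rgs2, which ends G protein signals, had 2016 and 958 CPM (−1.07). Dusp1, a phosphatase that shuts off MAP kinases, had 3463 and 1739 CPM (−0.99). Of 24 NF-kB subunits and targets, 4 were called lower under TMM and 0 under total counts. Nfkbiz had 2296 and 1016 CPM (−1.18), Nfkbid had 1175 and 528 CPM (−1.15), Bcl2a1b, which has near-identical copies, had 362 and 168 CPM (−1.10), and Nfkbia, the inhibitor that keeps NF-kB in the cytoplasm, had 4167 and 2011 CPM (−1.05). Tnfaip3, the brake A20, stood at 7137 and 3570.1 CPM, a ratio of −0.999 just short of the call. Of 13 glucocorticoid receptor and target genes, 3 were called lower (1 under total counts), led by Irs2, an adaptor of insulin receptors, at 552 and 194 CPM (−1.51). Nr3c1, the receptor itself, had 555 and 519.6 CPM (−0.10).

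Surface receptors divided. Of 18 chemokine receptors, 6 were called lower and 1 (Ccr7) higher, or 3 and 1 under total counts, although the median of the list was 0.01 relative to all genes. Receptors of tissue and inflammatory homing made up the lower group, with Ccr1, Cxcr6, Ccr9, Ccr2, Ccr3 and Ccrl2. Cxcr3, a receptor of type 1 responses, had 199 and 301 CPM (0.59), and Cxcr4 (0.04) was near 0. Of 20 integrins and adhesion genes, 3 were called lower (Itgb3, Itgb7 and Cd44) and 1 higher, or 1 and 2 under total counts. The median of this list was 0.16 relative to all genes, and 11 of the 20 lay above the middle. Itgb3, the beta chain of the vitronectin receptor, stood at 141 (WT) and 40.3 CPM (2KR) in fat, against 24.3 (WT) and 34.0 CPM (2KR) in spleen, a ratio of −1.81 (95% interval −1.98 to −1.65). Itgb7, a chain of the gut homing integrin, had 2124 and 1015 CPM (−1.06).

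Of 24 costimulatory and checkpoint receptors, 3 were called lower (Cd69, Cd200r1 and Cd44) and 3 higher (Cd200, Btla and Slamf6), or 2 and 5 under total counts. Cd69, an early activation antigen that holds T cells in tissues, stood at 2041 (WT) and 499.6 CPM (2KR) in fat, against 257 (WT) and 292 CPM (2KR) in spleen, a ratio of −2.03 (95% interval −2.08 to −1.99). Icos (0.49), Pdcd1 (−0.37) and Cd28 (−0.05) did not reach 2-fold. Of 25 interleukin receptors, 4 were called lower and 1 higher (2 and 2 under total counts). Il12rb1 had 113 and 43.5 CPM (−1.38), Il9r had 63.1 and 28.6 CPM (−1.14), and Il10ra had 977 and 467 CPM (−1.07). Il18r1, a chain of the IL-18 receptor, was the higher one, at 24.0 and 52.1 CPM (1.11), and Il6st, the shared chain gp130, followed at 149 and 290.1 CPM (0.96). Il7r, the receptor of a survival cytokine, had 917 and 599 CPM (−0.61).

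Genes of lipid mediators were among the lower ones. Of 14 prostaglandin and leukotriene genes, 4 were called lower under both scalings and 0 higher. Ltb4r1, the receptor of leukotriene B4, stood at 384 (WT) and 95.9 CPM (2KR) in fat, against 2.91 (WT) and 4.20 CPM (2KR) in spleen, a ratio of −2.00 (95% interval −2.11 to −1.90). Hpgd, which inactivates prostaglandin E2 and is used by fat Treg cells to suppress, had 143 (WT) and 52.6 CPM (2KR) in fat, against 12.7 (WT) and 4.66 CPM (2KR) in spleen and a ratio of −1.44 (95% interval −1.59 to −1.30). Hpgds, a synthase of prostaglandin D2, had 21.0 and 8.09 CPM (−1.36), and the fourth was Cyp4f18, which modifies leukotriene B4. Cyp4f18 was read at 236 (WT) and 57.4 CPM (2KR) in fat, against 0.727 (WT) and 62.2 CPM (2KR) in spleen, with opposite directions in fat (−2.04) and spleen (6.12). The receptors Ptger4 (0.49) and Ptger2 (0.42) lay on the other side. Of 32 proteases and their inhibitors, 4 were called lower and 1 higher (2 and 1 under total counts), with Mmp9, a gelatinase, at 299 and 102 CPM (−1.55).

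Lipid droplet and uptake genes gave calls in both directions. Of 26, 2 were called lower and 1 higher under both scalings, and 19 lay above the middle of all genes, with a median of 0.28 relative to all genes. Without the filter on level this median was 0.000823, level with all genes. The 2 lower ones encode proteins of the droplet itself. Hilpda, which blocks breakdown of stored triglyceride, stood at 1049 (WT) and 254 CPM (2KR) in fat, against 48.2 (WT) and 41.5 CPM (2KR) in spleen, a ratio of −2.04 (95% interval −2.11 to −1.98). Plin2, a coat protein of droplets, stood at 539 (WT) and 182 CPM (2KR) in fat, against 38.8 (WT) and 37.8 CPM (2KR) in spleen, a ratio of −1.57 (95% interval −1.65 to −1.49). Dgat1, which completes triglyceride synthesis, had 349.7 and 209 CPM (−0.74), and its unrelated counterpart Dgat2 had 65.7 and 86.8 CPM (0.40). Abca1, a cholesterol exporter, was called higher, at 12.3 and 25.5 CPM (1.05), and Fabp4, a fatty acid carrier, had 124 and 81.7 CPM (−0.60).

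Of 22 fatty acid oxidation genes 0 were called under TMM, and 1 was called higher under total counts. Of the 22, 18 lay below the middle of all genes, and the median was −0.19 relative to all genes (−0.41 without the filter on level). Acadl, a dehydrogenase of long chains, had 155 and 102 CPM (−0.60), and Cpt1a, the entry step into mitochondria, had 272 and 203 CPM (−0.42). Of 21 sterol and fatty acid synthesis genes, 2 were called lower under TMM and 1 under total counts. Nsdhl, a dehydrogenase of sterols, had 53.6 and 24.5 CPM (−1.13), and Srebf1, a master factor of lipid synthesis, had 72.9 and 37.8 CPM (−0.95). Of 17 glycolysis and glucose transport genes, 0 were called under TMM, and 1 was called higher under total counts. Hk1, the first step of glycolysis, had 181 and 91.5 CPM (−0.98), and Slc2a3, a glucose transporter, had 230.4 and 142 CPM (−0.70).

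Machinery shared by most cells was called lower at a share near that of all genes. Of the 305 genes in such lists and in no T cell list, 6 were called lower (1.97%) and 0 higher under TMM. Over all 7750 genes the shares were 2.50% lower and 1.01% higher. Under total counts 3 of the 305 were called lower and 6 higher, beside 1.19% and 2.93% of all 7750. All 42 oxidative phosphorylation, 26 cytosolic ribosomal protein and 37 mitochondrial ribosomal protein genes stayed under 2-fold. Their medians relative to all genes were −0.17, −0.21 and −0.13 in fat, and −0.30, −0.28 and −0.20 in spleen, below the middle in both tissues. Among genes at 100 CPM the relative oxidative phosphorylation median in fat was −0.072. The unfolded protein response list (26 genes) had a median of 0.04 and the interferon response list (30 genes) of −0.08. The heat shock list (25 genes) stood at −0.11 in fat and 0.33 in spleen. Hspa1a, an inducible chaperone with a near-identical copy, had 19.0 and 38.1 CPM (0.996), whereas Hsph1, its exchange factor, had 134 and 77.3 CPM (−0.79).

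Cell cycle genes were few at this level. Of the 39 found, 23 were under 20 CPM in both fat libraries. The 16 that passed lay above the middle of all genes, with a median of 0.45 relative to all genes in fat and −0.03 in spleen. None reached 2-fold under TMM, and 2 did under total counts. Ccnb2 and Ccna2, cyclins of dividing cells, had 13.0 and 22.2 CPM (0.76) and 13.6 and 22.9 CPM (0.75), Mki67, a marker of cycling cells, had 39.8 and 43.6 CPM (0.13), and Pcna, the replication clamp, had 69.5 and 66.7 CPM (−0.06). Ccnb2 and Ccna2 passed through 2KR fat alone, and over all 39 genes the median was 0.27 relative to all genes. Iron handling genes (13, median 0.32) and the TNF receptor superfamily (15, median 0.29) also lay above the middle, but at −0.02 and 0.02 without the filter on level. Tnfrsf25, the receptor DR3, went the other way, at 132 and 62.4 CPM (−1.08). Bcl2l11, the death factor BIM, had 45.6 and 81.5 CPM (0.83). Of 16 clock genes 2 were called lower (1 under total counts), Hlf (−1.36) and Per1 (−1.08), while Clock had 0.27. TGF-beta receptor and SMAD genes (18) had a median of −0.01, with Tgfbr2 at 342 and 206 CPM (−0.73).

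Over all lists, genes in T cell lists and genes only in lists of other cell types gave different counts. Each gene was counted in 1 class, with T cell lists taken first. The T cell class therefore also holds genes that stand in lists of other cell types too, such as Itgam, Ctss, Fabp4 and Cd36. It includes the lists of proteases and of lipid droplet genes, which are not limited to T cells. Of the 379 genes in T cell lists, 13 were called higher (3.43%) and 59 lower (15.6%). The fat Treg list alone holds 19 of the 59. Of the 68 markers of other cell types alone, 6 were called higher and 6 lower (8.82% each), with a median ratio of 0.49. The 6998 genes in none of the lists had 59 higher (0.843%) and 123 lower (1.76%). Lists were chosen with earlier results of these data known, so these shares describe the lists and do not test the classes. Under total counts the T cell lists had 27 higher and 32 lower, and the markers of other cell types 22 higher and 4 lower.

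Markers of antigen-presenting cells were higher in 2KR fat. Of 19 dendritic cell and MHC class II genes at 20 CPM, 17 lay above the middle of all genes, with 2 called higher (8 under total counts) and 0 lower. The summed level of the 26 found was 10332 (WT) and 18015 CPM (2KR) in fat, against 1607 (WT) and 1146 CPM (2KR) in spleen. Cd74, the invariant chain of MHC class II, made up much of it, with 4501 (WT) and 8267 CPM (2KR) in fat, against 741 (WT) and 502 CPM (2KR) in spleen. Its ratio was 0.88 (95% interval 0.86 to 0.89) in fat and −0.56 in spleen. Mgl2, a lectin of dendritic cells, had 126 and 296 CPM in fat (1.23), and Flt3, a growth factor receptor of their precursors, had 15.6 and 44.6 CPM (1.51). Of 20 macrophage and monocyte markers, 19 lay above the middle, with Cd163, a scavenger receptor, at 28.4 and 77.4 CPM (1.44), Csf1r at 52.4 and 96.4 CPM (0.88) and Lyz2 at 1015 and 1209 CPM (0.25). Without the filter on level the medians relative to all genes were 0.57 for the dendritic cell list (0.85 with it) and 0.14 for the macrophage list (0.66 with it). The summed macrophage level was 2646 CPM in WT fat and 3390.0 CPM in 2KR fat.

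Most B cell and endothelial markers at 20 CPM also lay above the middle, at lower levels. Of 8 B cell markers, 7 lay above the middle, with Ms4a1, the antigen CD20, at 19.4 and 44.0 CPM (1.18) and H2-Ob at 26.3 and 76.5 CPM (1.53). Spleen Treg cells also held H2-Ob, at 118 (WT) and 105 CPM (2KR). Of 12 endothelial markers, 10 lay above the middle, with Cldn5, a tight junction protein, at 10.7 and 24.6 CPM (1.19). Ms4a1 and Cldn5 passed 20 CPM through 2KR fat alone, and 20 B cell and 22 endothelial markers were found in all. Without the filter on level the B cell median was 0.63 relative to all genes (0.99 with it). The endothelial median was then 0.31 (0.61 with it). Myh11 (10.5 and 35.7 CPM, ratio 1.75), Acta2 (21.7 and 59.8 CPM, 1.46) and Myl9 (8.03 and 24.6 CPM, 1.59), which encode contractile proteins of smooth muscle, were among the 12 highest ratios, as was Mef2c, a factor of muscle and myeloid cells (11.8 and 43.1 CPM, 1.85). No list of smooth muscle genes was counted. The 15 CD8 T and NK cell markers summed to 413 (WT) and 585 CPM (2KR) in fat, against 291 (WT) and 213 CPM (2KR) in spleen. Only 4 of them reached 20 CPM in fat, with 3 ratios above 0 and 1 below. Under TMM 0 of these were called, and under total counts 2 were called higher. Without the filter on level the median of this list was −0.43 relative to all genes. Mast cell markers did not reach 20 CPM. Their reads went from 4 in WT fat to 175 in 2KR fat for Tpsb2, from 22 to 155 for Cpa3 and from 0 to 102 for Mcpt4.

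Stromal and innate lymphoid markers had the opposite direction. Of 10 fibroblast and mesothelial markers, 5 were called lower (3 under total counts) and 0 higher, with a median of −0.68 relative to all genes. Dcn, a matrix proteoglycan, had 348 (WT) and 142 CPM (2KR) in fat, against 0.404 (WT) and 0.984 CPM (2KR) in spleen, and Col3a1, a fibrillar collagen, had 77.9 and 31.3 CPM in fat (−1.31). The summed fibroblast level was 1452 CPM in WT fat and 856 CPM in 2KR fat. Of 19 type 2 innate lymphoid genes found, 11 were at 20 CPM. All 11 lay below the middle and 7 were called lower (5 under total counts). Their median was −0.94 relative to all genes, and it was −0.61 over all 19 without the filter on level. Il1rl1, Areg, Klrg1 and Gata3 stand in this list and in the fat Treg list, and all of them were among those called lower. The summed level of the list was 8010 CPM in WT fat and 2631 CPM in 2KR fat, much of it from Il1rl1, Areg and Klrg1. The list thus repeats in large part the difference given above for fat Treg genes. The rest included Calca, a neuropeptide, at 44.95 and 16.7 CPM (−1.42) and Il5 at 28.8 and 17.5 CPM (−0.71). Of adipocyte markers, Adipoq had 0 reads in WT fat and 11 in 2KR fat, and Plin1 had 9 and 14. The summed adipocyte level was 322 CPM in WT fat and 304 CPM in 2KR fat, and it includes Fabp4, which stands in the endothelial list too. Without the filter on level the adipocyte median was 0.23 relative to all genes. Neutrophil markers summed to 18.9 and 22.7 CPM. How far RNA of other cells enters the T cell differences was not tested.

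**Figure D4:**
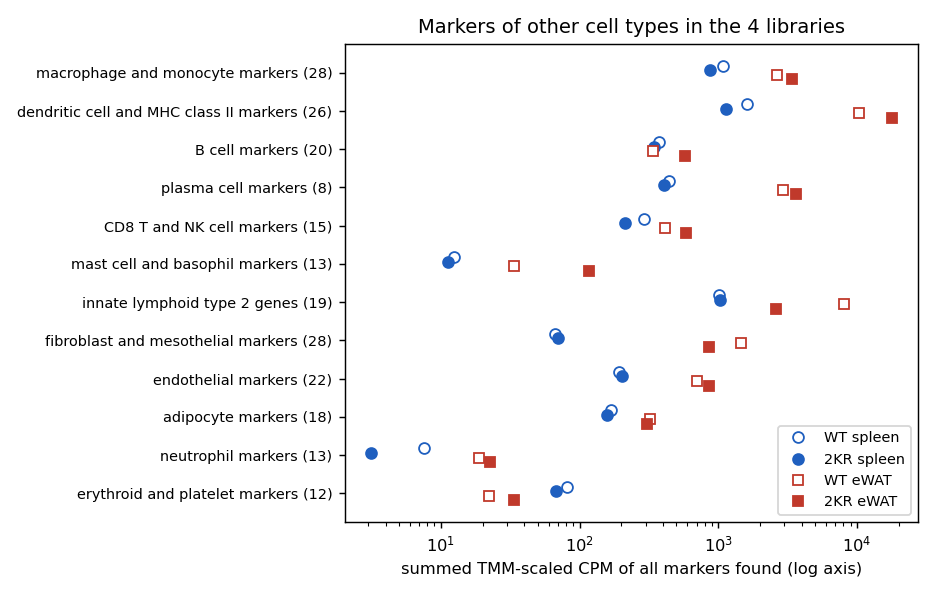
Summed TMM-scaled CPM (log axis) of all markers found for 12 other cell types in each library, with the number of markers in parentheses. Circles are spleen and squares eWAT, open symbols WT and filled symbols 2KR. Antigen-presenting, B and mast cell markers are higher in 2KR than in WT eWAT, fibroblast and type 2 innate lymphoid markers lower, and adipocyte and neutrophil markers nearly level in their sums. Much of the type 2 innate lymphoid sum comes from Il1rl1, Areg and Klrg1, which are fat Treg genes too.

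The spleen libraries entered the fat ratios only through the TMM factors, which were computed over all 4 libraries, and gave few calls between genotypes. Of 7846 genes at 20 CPM in 1 spleen library, 4 were called higher in 2KR (0.0510%) and 10 lower (0.127%). Over the same 7750 genes as in fat, the spleen ratio gave 25 higher (0.323%) and 91 lower (1.17%), with a median of −0.02. For the 78 genes higher in fat the spleen ratio had a median of −0.05 and quartiles of −0.55 and 0.23, with 2 called higher and 7 lower in spleen. For the 194 lower genes the median was −0.04 and the quartiles −0.34 and 0.16, with 5 called higher and 16 lower. Among genes called in fat, spleen calls were thus a larger share than among all 7750, in both directions. Sequencing was deeper in spleen, and many fat genes had few reads there.

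The calls in fat were then split by the level of each gene in spleen. Of 6862 genes at 20 CPM or more in both spleen libraries, 99 were called lower in 2KR fat (1.44%) and 31 higher (0.452%), or 39 and 91 under total counts. Of the 73 genes under 1 CPM in both spleen libraries, 13 were lower (17.8%) and 9 higher (12.3%), and of the 815 between these levels 82 were lower (10.1%) and 38 higher (4.66%). Under total counts the balance turned in these classes too, to 9 lower and 17 higher among the 73 and to 44 lower and 119 higher among the 815. Restricted to the first class, the 12 lowest ratios were those of Csf1, Cxcr6, Tox2, Hilpda, Cd69, Ctla2a, Itgb3, Sp6, S100a6, Nr4a1, Plin2 and Plec. The 12 highest included Lrig1, Lrrc32, Ctsw, Cd200, Satb1 and Btla, with Gramd3 at 102 and 233 CPM (1.19) and Frmd6 at 25.6 and 58.6 CPM (1.19). For these 24 genes the spleen ratio lay between −0.38 and 0.65, and 0 of them were called in spleen.

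**Figure D5:**
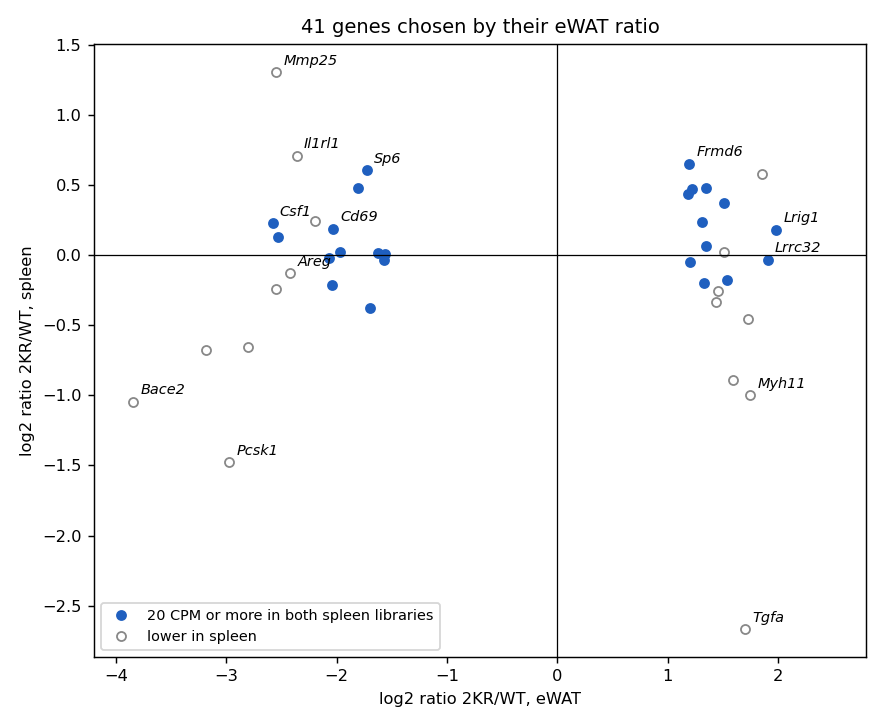
Log2 ratio of 2KR over WT in eWAT (horizontal) and in spleen (vertical) for the 41 genes with the most extreme eWAT ratios by the naming rule, 1 point per gene. Filled points were at 20 CPM or more in both spleen libraries, and their spleen ratios lie between −0.38 and 0.65. Open points were lower in spleen, and Tgfa had 0 reads in 2KR spleen, so that its spleen position depends on the prior count of 2.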

How the data were processed

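RNA of sorted Treg cells from 4 groups was measured by sequencing, with 1 library each, and groups were taken from the sample labels. Read counts per gene symbol were deposited by the authors without scaling. Per the deposited readme, reads of 100 bp were placed on mm9 by Tophat 2.1.0 with 4 mismatches and 10 multiple hits as limits, after conversion with bcl2fastq 1.8.4, a version that the submitters' processing notes give too. How reads were counted, and with which strand setting, is not stated there. Overlapping and near-identical genes are therefore uncertain. The notes name mm8 beside mm9. FPKM values per gene, deposited by the authors from Cufflinks 2.0.2, served as an alternative. Gene positions are those of that table.

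TMM factors from edgeR 4.0.16 (R 4.3.3) on the 16488 genes that passed its expression filter, with tissue as group, were 0.934 for WT spleen, 0.953 for 2KR spleen, 0.968 for WT eWAT and 1.159 for 2KR eWAT. Ratios used a prior count of 2, and 95% intervals were exact conditional binomial (Clopper-Pearson) intervals on the reads. Alternatives were total count scaling, DESeq2 1.42.0 size factors, TMM of the 2 fat libraries, scaling to T cell genes, TMM without the filter, a prior count of 0.5, other level filters, and log2(FPKM + 0.1). Python 3.11.15, numpy 2.4.6, pandas 2.3.3, scipy 1.17.1 and matplotlib 3.10.9 did the rest, and the ratio steps were tested on simulated data.

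The 45 lists held 1089 genes, of which 1079 were found, 752 were at 20 CPM and 103 stand in more than 1 list. Lists and compared genes were chosen with earlier results of these data known. Genes named are Il1rl1, Areg, Bace2, Csf1, Ccr7, Pparg, Foxp3, the 12 highest and 12 lowest ratios that passed 2-fold under both scalings with 100 reads, the same number among genes at 20 CPM in both spleen libraries, and from each list 3 members at each end and the 2 with most reads. Clone names were skipped, and some genes that the rule picks are not reported here. Other list members, Cxcl1 and Cxcl3 were named after their values were seen.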

Additional observations from a re-analysis of the deposited data

Results flagged for a closer look

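Cyp4f18, a cytochrome P450 that acts on leukotriene B4, was the only gene at 20 CPM in 1 library of each tissue with a 2-fold difference in opposite directions and counting intervals on either side of 0. In eWAT the log2 ratio (2KR over WT) stood at −2.04, and in spleen at 6.12. WT spleen held 9 reads and 2KR spleen 948, against 2557 in WT eWAT and 553 in 2KR eWAT. With 1 library per group the difference between the tissues was not tested.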

How the results depend on the processing

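The number of genes higher in 2KR eWAT (78) was 227 under total count scaling, 205 with scaling to T cell genes, 224 from FPKM, 3458 with no filter on level and 10 among genes at 100 CPM. The number of genes lower in 2KR eWAT (194) was 92, 98, 96, 736 and 103 in the same order. DESeq2 size factors gave 71 and 210, and TMM without the filter, an alternative added after seeing the data, gave 60 and 238.

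Under total count scaling, genes at 20 CPM in both spleen libraries gave 91 higher and 39 lower, those under 1 CPM in both 17 higher, and those between 119 higher and 44 lower. For genes without a filter on level, list medians relative to all genes became −1.05 (fat Treg), 0.19 (lymphoid and resting), −0.36 (T cell identity), −0.86 (NR4A and EGR), −0.41 (heat shock), −0.25 (unfolded protein response), 0.000823 (lipid droplet), −0.41 (fatty acid oxidation), −0.48 (oxidative phosphorylation), −0.44 and −0.43 (cytosolic and mitochondrial ribosomal proteins), 0.27 (cell cycle), −0.20 (costimulatory receptors), −0.26 (proteases), 0.14 (macrophage) and 0.57 (dendritic cell and MHC class II). At 100 CPM they moved to −0.072 (oxidative phosphorylation), 0.29 (clock) and 1.05 (dendritic cell and MHC class II). The cause of these moves was not tested. Under the other settings the 41 list medians stayed within their intervals.

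No paired analysis was possible because each group has 1 library and the labels carry no replicate numbers. Leaving out a library was not run for the same reason. Depth limits genes near 20 CPM, where the 2KR eWAT library, the shallowest, holds fewest reads.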
